A study of Mus musculus with 12 samples.

Results

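The genes described here are 38 antiviral interferon-stimulated genes, taken by name from a list: genes that cells switch on in response to interferon and whose products hinder viral replication or regulate that response. They were followed in the whole ear of Spade mutant mice and of wild-type littermates. A value was taken for a gene only from probe sets whose annotation names that gene alone, and where several did, the one with the highest mean over all arrays was used. By this rule 36 of the 38 genes had a value, among 18194 genes in all. Isg15 had only a probe set that it shares with another gene, and for Ifi44 no probe set was found. Of the 36 genes, 31 reached a log2 level of 4 on at least 2 of 12 arrays and were tested among 11984 genes. Oasl1, Oas2, Oas3, Mx1 and Mx2 did not reach that level and were not tested. The genes that drive cell-autonomous defence against intracellular bacteria (the interferon GTPases) and those of antigen presentation are not members.

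Mice of genotype Spade/Spade, homozygous for the Spade allele, were compared with wild-type littermates aged 2, 4 and 6 weeks. Spade is known from the study of this line as a mutation that makes the kinase JAK1 overactive, and homozygotes as developing dermatitis. The allele is carried in the germline, so all cell types of the ear carry it. No sex, strain or treatment is given in the labels used here. Each of the 6 groups held 2 samples, with 1 Affymetrix mouse expression array per sample.

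Interferons of type I and type III bind cell-surface receptors that are coupled to JAK kinases, JAK1 among them. The kinases phosphorylate STAT transcription factors, which join IRF9 in a complex named ISGF3. This complex binds the interferon-stimulated response element, ISRE, in the promoters of its target genes. Another element, GAS, is known from genes that respond to interferon gamma. In skin, keratinocytes, fibroblasts, endothelium and leukocytes can all respond.

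Levels are GCRMA values on a log2 scale, on which a difference of 1 is a doubling. The values have a floor of 2.14, shared by all 12 arrays, and reach 16.6. MAS5, a separate algorithm that compares matched and mismatched probes, called 52.3% to 58.1% of 45101 probe sets present on an array. The correlation between the 2 arrays of a group, over tested genes, was 0.939 in the 2-week mutants and 0.985 to 0.994 in the other groups. In that group replicate 3 stood apart from replicate 2, with hair-shaft markers higher and muscle and cartilage markers lower. All 6 keratinocyte, 5 fibroblast and 7 muscle markers and 5 of 6 cartilage markers, the exception being Matn1, were called present on all 12 arrays labelled whole ear. The labels number the samples without naming animals, so the spread behind each p-value is that between these samples, which may be technical. In whole tissue, more cells of a responding type and more RNA per cell cannot be told apart.

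When the 3 ages were averaged, antiviral genes stood higher in the mutant ear than in the wild-type ear. Rtp4, which encodes a chaperone of cell-surface receptors, rose 6.26-fold. Usp18, the protease that removes ISG15 from its targets and restrains the type I interferon receptor, rose 7.21-fold, and Ifit1, an RNA-binding inhibitor of viral translation, rose 9.01-fold as fitted. Xaf1, Ifi27l2a, Irf9, Parp9, Ifih1 and Trim25 rose by smaller amounts, from 1.46-fold for Trim25 to 2.71-fold for Xaf1.

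In all, 9 of the 31 tested members passed an adjusted p of 0.05 in limma, with Benjamini-Hochberg adjustment over all genes, and all of these were higher in the mutant. Among all 11984 genes, 0.534% were called higher and 0.108% lower. The average difference was above 0 for 31 of 31 members, beside 42.4% of all genes. At least a 2-fold difference was measured for 12 members, beside 0.993% of all genes, and an unadjusted p under 0.05 in the higher direction for 28, beside 6.84%. The 12 include Dhx58 and Oasl2, which MAS5 called present on 0 and 1 of 6 wild-type arrays. The median log2 difference was 0.91 over the members and -0.03 over all genes.

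The number of members called depended on single arrays, while the direction did not. It was 0 without either 4-week wild-type array, either 6-week wild-type array or either 6-week mutant array. It was 1 and 2 without 2-week wild-type replicates 1 and 2, 5 without 4-week mutant replicate 2, and 26 when replicate 2 of the 2-week mutants was left out. Leaving out the array that stood apart, replicate 3 of that group, gave 7 calls. Calls over all genes moved with these counts and were also most numerous without replicate 2 of the 2-week mutants. In each of these fits 31 of 31 members had a difference above 0. The array numbers in the labels fall into 3 ranges. With a term for the range of 17 to 20 in the fit, 3 members were called, Rtp4, Usp18 and Xaf1, among 24 of 11984 genes.

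**Figure D1:**
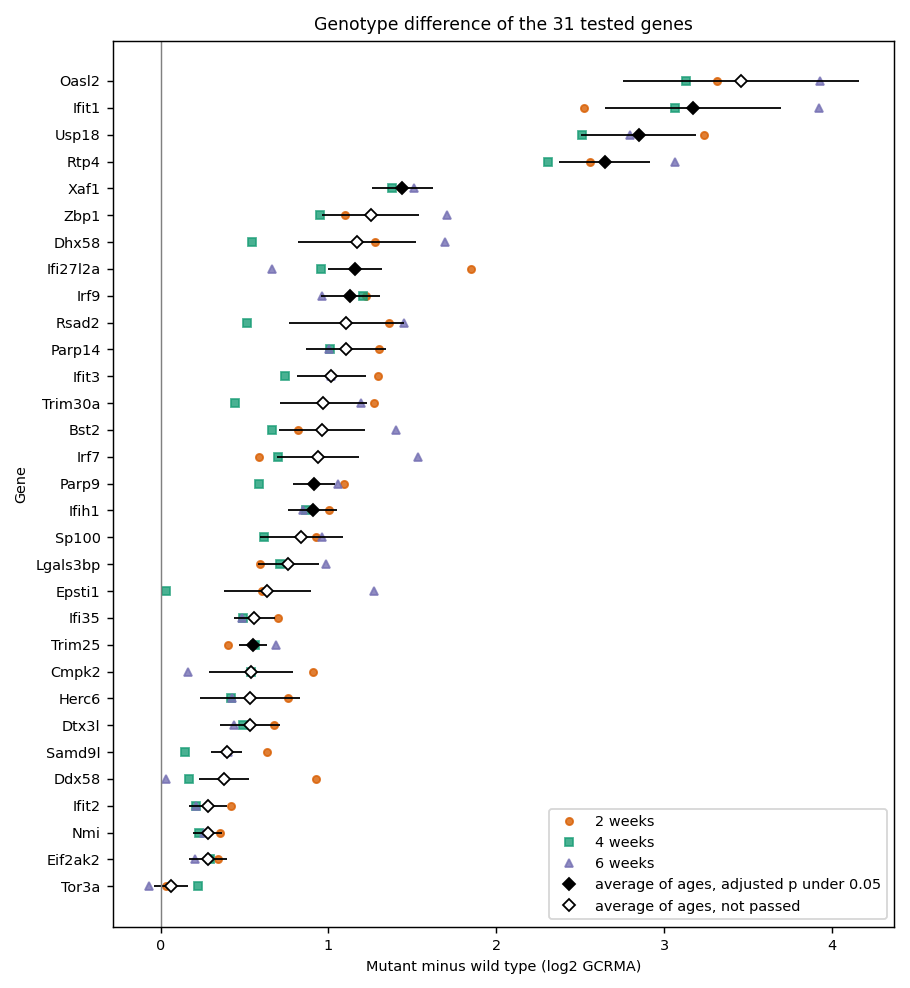
Mutant minus wild-type difference of the 31 tested genes, in log2 GCRMA units. Diamonds give the average over ages with bars for the standard error of the limma fit, filled where the adjusted p was under 0.05, and the other symbols give each age. Averages run from 0.06 for Tor3a to 3.46 for Oasl2, whose bar is the widest and whose diamond is open.

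RefSeq promoter sequences of build GRCm38.p6, from 250 bases before to 50 after an annotated transcript start, were found for 27 of the 38 members, in 31 windows. They were searched on both strands for the ISRE core, a pair of GAAA repeats set apart by any 2 bases. The core was present in 11 of 31 member windows, or 35.5%, beside 3.44% of 32851 windows of all genes. By gene, 10 of 27 members held it: Bst2, Ddx58, Eif2ak2, Ifih1, Ifit1, Ifit3, Isg15, Oas3, Rsad2 and Trim30a. With a C after the core, the share was 9 of 31 member windows and 0.819% of all. The GAS element, TTC and GAA set apart by any 3 bases, was present in 4 of 31 member windows, or 12.9%, beside 8.30% of all. Of these GAS matches, in Bst2, Eif2ak2, Ifi35 and Ifit2, the match in Bst2 overlapped an ISRE core. A match of letters is a description and not a binding site.

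Stretches of these windows are printed for members that span the range of responses, from Ifit1 to Eif2ak2. They are printed on the gene's strand, 5′ to 3′, with the ISRE core in capitals. Capitals that begin with TTTC are a core read on the opposite strand. In Ifit1, at chr19:34640765-34640833 on the + strand, and in Ifit3, at chr19:34583353-34583436 on the + strand, 2 cores lie upstream of the start.
Ifit1: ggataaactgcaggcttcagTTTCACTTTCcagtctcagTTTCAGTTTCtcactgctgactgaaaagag
Ifit3: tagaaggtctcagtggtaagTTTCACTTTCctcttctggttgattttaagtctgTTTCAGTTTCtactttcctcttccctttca
The capitals of the first core are the same in both genes, and so are those of the next. Rsad2, at chr12:26456543-26456592 on the - strand, and Trim30a, at chr7:104465200-104465249 on the - strand, are shown with 1 core each, and Bst2, at chr8:71537567-71537622 on the - strand, has 2 cores that overlap.
Rsad2: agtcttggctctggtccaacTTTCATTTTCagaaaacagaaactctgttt
Trim30a: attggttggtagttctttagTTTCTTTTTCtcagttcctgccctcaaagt
Bst2: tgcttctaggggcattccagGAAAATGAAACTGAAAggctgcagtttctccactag
The last stretches, of 30 bases each, lie across or after the annotated start of the RNA sensors Ifih1, at chr2:62646206-62646235, Ddx58, at chr4:40239804-40239833, and Eif2ak2, at chr17:78882535-78882564, all on the - strand.
Ifih1: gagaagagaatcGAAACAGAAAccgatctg
Ddx58: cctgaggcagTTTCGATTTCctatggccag
Eif2ak2: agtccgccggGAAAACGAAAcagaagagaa

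**Figure D2:**
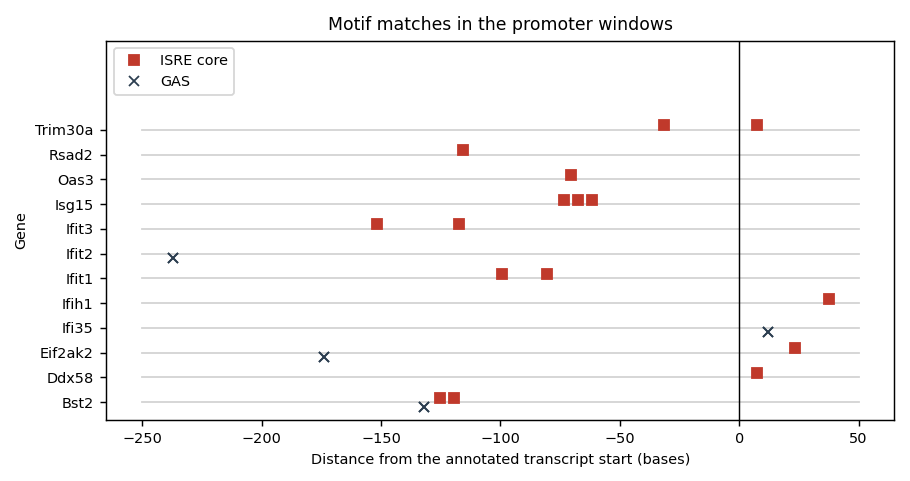
Positions of ISRE core matches (squares) and GAS matches (crosses) in the promoter windows of the members that hold either, by distance in bases from the annotated transcript start. Cores of Ifit1, Ifit3, Rsad2, Bst2, Isg15 and Oas3 lie upstream of the start, and those of Ifih1 and Eif2ak2 after it.

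Members with and without the core overlapped in their differences. Among tested members, the 8 with a core had a median difference of 0.97 and 2 calls, Ifih1 and Ifit1. The 15 with a window but no core had a median of 0.56 and 3 calls, Irf9, Xaf1 and Trim25. The 8 with no window in the table had a median of 1.16 and 4 calls, Rtp4, Usp18, Ifi27l2a and Parp9. The difference between these sets of genes was not tested.

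The RNA binders and oligoadenylate synthetases comprised 9 members, of which 6 were tested and 1 rose. Ifit1, whose product binds RNA with a cap that lacks host methylation, lay near the floor in the wild type, at 2.14 and 2.39 at 2 weeks, 2.14 and 2.74 at 4 weeks and 2.61 and 2.77 at 6 weeks. In the mutant it lay at 3.18 and 6.39 at 2 weeks, 4.59 and 6.43 at 4 weeks and 6.67 and 6.57 at 6 weeks. The groups did not overlap at any age, and the mutant arrays nearest the wild type were the lower ones of 2 and 4 weeks. The average difference was 3.17 ± 0.53 (SE, 6 arrays per genotype; limma, adjusted p = 0.039). MAS5 called Ifit1 present on all 12 arrays, and on MAS5 signals the difference was 1.64, smaller than the GCRMA value. The cause of that gap was not tested.

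Oasl2, an oligoadenylate synthetase-like protein that carries ubiquitin-like domains, had the highest difference among the members and did not pass. It lay at 2.14 and 4.47 in the wild type and 4.82 and 8.42 in the mutant at 2 weeks, at 2.58 and 2.64 against 4.47 and 7.02 at 4 weeks, and at 3.53 and 2.65 against 6.94 and 7.10 at 6 weeks. The groups did not overlap at any age, but replicates lay up to 3.60 apart, in the 2-week mutants. The average difference was 3.46 ± 0.70 (limma, adjusted p = 0.079). MAS5 called it present on 1 of 6 wild-type and 5 of 6 mutant arrays.

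Zbp1, a sensor of left-handed nucleic acid helices that can start cell death, lay at 4.58 and 3.93 in the wild type and 4.50 and 6.21 in the mutant at 2 weeks. At 4 weeks it lay at 3.80 and 3.78 against 4.89 and 4.59, and at 6 weeks at 3.80 and 3.78 against 5.15 and 5.85. The groups overlapped at 2 weeks and were apart at the other ages. MAS5 called Zbp1 present on 2 of 6 wild-type and 3 of 6 mutant arrays, and on no array of either genotype at 4 weeks. The average difference of Zbp1 was 1.25 ± 0.29 (limma, adjusted p = 0.103).

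Ifit2 and Ifit3, partners of Ifit1, were called present on all 12 arrays. Ifit2 ranged from 7.30 to 8.08 and Ifit3 from 6.78 to 9.81. Their differences were 0.28 ± 0.11 and 1.02 ± 0.20 (limma, adjusted p = 0.300 and 0.079). Ifit3 lies in 1 cluster with Ifit2 and Ifit1 on chromosome 19 and has the neighbour Ifit3b, a near-identical copy whose RNA the probe set may also detect, so its level is uncertain. Eif2ak2, the kinase PKR that halts translation on binding double-stranded RNA, lay at 7.82 and 7.93 in the wild type and 7.92 and 8.51 in the mutant at 2 weeks. It lay at 7.46 and 7.45 against 7.69 and 7.82 at 4 weeks, and at 7.73 and 7.74 against 8.08 and 7.81 at 6 weeks. This was among the smallest differences of any member, at 0.28 ± 0.11, and the groups overlapped at 2 weeks. Of the synthetases that activate RNase L, Oas3 lay between 2.14 and 2.22 and Oas2 between 2.31 and 2.87. Oasl1, which in mice restrains the translation of Irf7, lay at the floor on all 12 arrays. Nothing can be said of a difference at such levels.

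**Figure D3:**
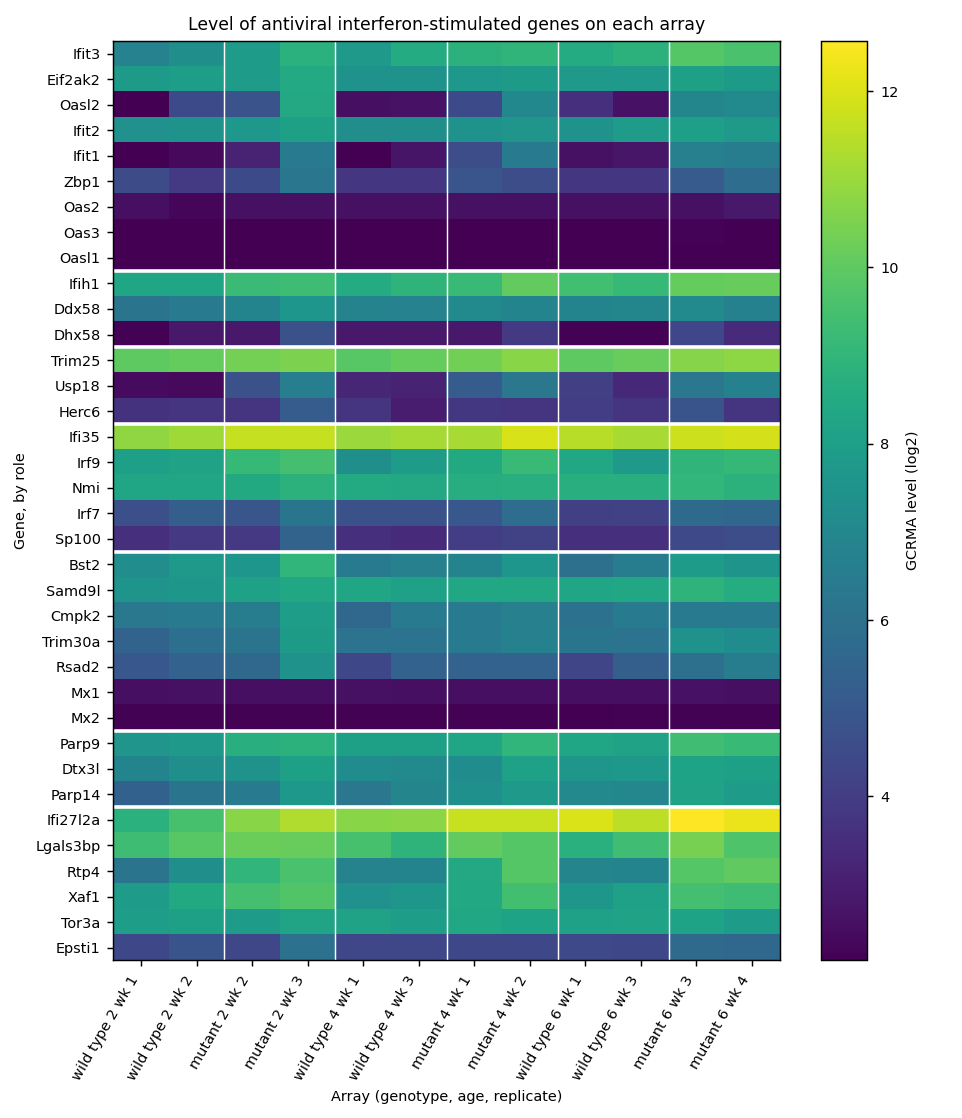
Log2 GCRMA level (colour scale) of the 36 members with a value, in rows grouped by role, on each of the 12 arrays, in columns by age, genotype and replicate. Ifit1, Oasl2, Usp18 and Rtp4 are darker on the wild-type arrays than on the mutant arrays of the same age, and Oas3, Oasl1, Mx1 and Mx2 are dark throughout.

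All 3 RNA helicase sensors were tested, and 1 rose. Ifih1, the sensor MDA5 of long double-stranded RNA, lay at 8.27 and 8.32 in the wild type and 9.26 and 9.34 in the mutant at 2 weeks. It lay at 8.56 and 8.92 against 9.16 and 10.05 at 4 weeks, and at 9.41 and 9.14 against 10.10 and 10.15 at 6 weeks. The genotypes were apart at each age, and its average difference was 0.91 ± 0.15 (1.87-fold; limma, adjusted p = 0.039).

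Dhx58, the regulatory helicase LGP2, lay at 2.18 and 2.83 in the wild type and 2.87 and 4.71 in the mutant at 2 weeks. It lay at 2.87 and 2.84 against 2.87 and 3.93 at 4 weeks, and at 2.22 and 2.19 against 4.37 and 3.43 at 6 weeks. At 4 weeks the lower mutant array and the higher wild-type array were equal to the second decimal. MAS5 called it absent on all 6 wild-type arrays and present on 2 of 6 mutant arrays. Its fitted difference was 1.17 ± 0.35 (limma, adjusted p = 0.183) and did not pass, and no fold is given because it was not called present on most arrays of either genotype. Ddx58, the sensor RIG-I of short RNA with a triphosphate end, differed by 0.38 ± 0.15 (adjusted p = 0.297). Its difference was 0.93 at 2 weeks, 0.17 at 4 weeks and 0.03 at 6 weeks. A second probe set of Ddx58 gave an average of 0.01.

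Of the ISG15 system, 3 of 4 members were tested and 2 rose. Usp18 lay at 2.46 and 2.41 in the wild type and 4.73 and 6.62 in the mutant at 2 weeks, at 3.24 and 3.17 against 5.16 and 6.27 at 4 weeks, and at 4.12 and 3.28 against 6.27 and 6.73 at 6 weeks. No wild-type array of any age reached the lowest mutant array. The difference was 2.85 ± 0.34 (limma, adjusted p = 0.020), and 1.27 on MAS5 signals.

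Trim25, a ubiquitin ligase known to act with RIG-I, lay at 9.99 and 10.09 in the wild type and 10.38 and 10.50 in the mutant at 2 weeks. At 4 weeks it lay at 9.88 and 10.09 against 10.37 and 10.71, and at 6 weeks at 9.97 and 10.15 against 10.67 and 10.82. The rise was small and the replicates were close, with a difference of 0.55 ± 0.08 (limma, adjusted p = 0.034). It did not pass on MAS5 signals, at 0.43. Herc6, the main ISG15 ligase of mice, was the only member whose arrays overlapped at all 3 ages, and differed by 0.53 ± 0.30 (limma, adjusted p = 0.440).

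All 5 regulators of transcription and their partners were tested, and 1 rose. Irf9, the DNA-binding subunit of ISGF3, lay at 8.02 and 8.14 in the wild type and 9.13 and 9.48 in the mutant at 2 weeks. It lay at 7.34 and 7.91 against 8.46 and 9.20 at 4 weeks, and at 8.36 and 7.74 against 8.95 and 9.08 at 6 weeks. The groups were apart at each age, with an average difference of 1.13 ± 0.18 (2.19-fold; limma, adjusted p = 0.034). Irf7, which amplifies interferon production, ranged from 4.12 to 5.28 in the wild type and from 4.94 to 6.21 in the mutant. It differed by 0.94 ± 0.24 (limma, adjusted p = 0.133), and it passed on MAS5 signals, at 1.06. The nuclear body protein gene Sp100 stood at 0.84 ± 0.25, and Nmi and Ifi35, whose products bind each other, at 0.28 ± 0.09 and 0.56 ± 0.12. None of these 3 passed.

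Of 7 effectors that act on viral particles or replication, 5 were tested and none passed in limma, beside 4 with an unadjusted p under 0.05. Rsad2 encodes viperin, an enzyme that makes a chain-terminating nucleotide. It lay at 4.96 and 5.41 in the wild type and 5.62 and 7.47 in the mutant at 2 weeks, at 4.38 and 5.41 against 5.41 and 5.41 at 4 weeks, and at 4.32 and 5.29 against 6.00 and 6.51 at 6 weeks. The groups met at 4 weeks, where 3 of 4 arrays had the same level. The difference was 1.11 ± 0.34 (limma, adjusted p = 0.202). Cmpk2, a mitochondrial nucleotide kinase and the neighbour of Rsad2 on chromosome 12, stood at 0.54 ± 0.25.

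Bst2, the tetherin that holds budding virions at the cell surface, had a mean level of 6.79 in the wild type and 7.75 in the mutant, and differed by 0.96 ± 0.25 (limma, adjusted p = 0.138). Trim30a stood at 0.97 ± 0.26, or 1.48 by its other probe set, and Samd9l, an inhibitor of translation, at 0.39 ± 0.09. The Mx GTPase genes, which in many laboratory strains carry inactivating mutations, lay at 2.56 to 2.63 (Mx1) and 2.14 to 2.22 (Mx2) and were not tested.

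Parp9, Dtx3l and Parp14 lie next to each other on chromosome 16, and 1 of the 3 rose. PARP9 and the ubiquitin ligase DTX3L form a complex, and PARP14 transfers ADP-ribose to proteins. Parp9 lay at 7.57 and 7.79 in the wild type and 8.69 and 8.85 in the mutant at 2 weeks, at 8.08 and 8.09 against 8.31 and 9.02 at 4 weeks, and at 8.30 and 8.15 against 9.38 and 9.18 at 6 weeks. The genotypes were apart at each age, with a difference of 0.91 ± 0.13 (1.88-fold; limma, adjusted p = 0.027). Parp14 stood at 1.11 ± 0.24 (adjusted p = 0.091) and passed on MAS5 signals, at 0.72. Dtx3l stood at 0.53 ± 0.18 with the probe set used and at 1.30 with its other probe set.

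Of the 7 other induced genes, 6 were tested and 3 rose. Rtp4 lay at 6.13 and 7.34 in the wild type and 9.02 and 9.57 in the mutant at 2 weeks, at 6.81 and 6.85 against 8.45 and 9.83 at 4 weeks, and at 6.87 and 6.84 against 9.82 and 10.02 at 6 weeks. Its lowest mutant array lay above its highest wild-type array by more than 1 log2 unit. The difference was 2.65 ± 0.27 (limma, adjusted p = 0.015), the lowest adjusted p among the members, and it was 1.90 on MAS5 signals.

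Xaf1, a proapoptotic protein, lay at 7.91 and 8.49 in the wild type and 9.51 and 9.75 in the mutant at 2 weeks, at 7.44 and 7.66 against 8.46 and 9.40 at 4 weeks, and at 7.65 and 8.13 against 9.44 and 9.35 at 6 weeks. The genotypes were apart at each age, by 1.44 ± 0.18 on average (limma, adjusted p = 0.023), or 0.68 on MAS5 signals. Ifi27l2a, a small membrane protein of the ISG12 family, lay at 8.81 and 9.54 in the wild type and 10.71 and 11.34 in the mutant at 2 weeks, at 10.71 and 10.77 against 11.69 and 11.71 at 4 weeks, and at 11.98 and 11.54 against 12.57 and 12.28 at 6 weeks. The levels of both genotypes were higher at later ages, and the average genotype difference was 1.16 ± 0.16 (2.23-fold; limma, adjusted p = 0.027).

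Lgals3bp, a secreted glycoprotein, and Epsti1 stood at 0.76 ± 0.18 and 0.63 ± 0.26 and did not pass. Tor3a, an ATPase of the endoplasmic reticulum, had the smallest difference, at 0.06 ± 0.10 (limma, adjusted p = 0.818). It lay at 7.97 and 8.08 in the wild type and 7.88 and 8.24 in the mutant at 2 weeks, at 8.16 and 7.97 against 8.38 and 8.20 at 4 weeks, and at 8.10 and 8.16 against 8.20 and 7.91 at 6 weeks. Its arrays overlapped at 2 and 6 weeks.

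The same question was then put to each age. At 2 weeks the median difference of the members was 0.93, at 4 weeks 0.59 and at 6 weeks 0.98, beside -0.04, -0.01 and -0.04 for all genes. No member passed an adjusted p of 0.05 in limma at 2 weeks (0.0% of all genes higher), 4 weeks (0.0%) or 6 weeks (0.0334%). At an unadjusted p under 0.05, 18 members were higher at 2 weeks (2.8% of all genes), 13 at 4 weeks (2.36%) and 22 at 6 weeks (5.64%). Differences above 0 were measured for 31, 31 and 30 members, beside 43.1%, 48.3% and 43.9% of all genes. The exception at 6 weeks was Tor3a, at -0.07.

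By the criterion of the series design text, a 2-fold difference and a low false discovery rate by rank product, 0 members passed at 2 weeks, beside 0.0167% of all genes. Ifit1, Oasl2, Rtp4 and Usp18 passed at 4 weeks (0.125% of all genes) and at 6 weeks (0.401%). These and Xaf1 and Zbp1 passed with the ages together (0.567%). There each mutant array was ranked against wild-type arrays of all ages, whereas the limma average used differences within an age. The replicates of the 2-week mutants were the least alike of any group, and whether this bears on the lack of calls at 2 weeks was not tested. The median member difference at that age was 1.50 without replicate 2 of that group and 0.44 without replicate 3. At 6 weeks 3 members passed without either 2-week mutant array and 2 without either 4-week mutant array, and 0 in the fits without any other array.

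The pair of mutant arrays was entirely above the wild-type pair for 23 of 31 members at 2 weeks (12.9% of all genes), 27 at 4 weeks (16.1%) and 26 at 6 weeks (19.8%). This held at all 3 ages for 18 members, beside 2.65% of all genes. These 18 were the 9 called genes with Dhx58, Ifi35, Ifit3, Lgals3bp, Nmi, Oasl2, Parp14, Samd9l and Trim30a. It held at 2 ages for 10 members, at 1 age for Cmpk2 and Tor3a, and at none for Herc6.

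The genotype difference itself was not shown to vary with age. Between 6 and 2 weeks it differed for 0 members in limma (0.0% of all genes higher and 0.0% lower), with 2 members lower at an unadjusted p under 0.05, beside 2.55% of all genes. These were Ifi27l2a, whose difference was smaller at 6 weeks by -1.19 ± 0.39 (unadjusted p = 0.0144, adjusted p = 0.838 in limma), and Ddx58, at -0.90 ± 0.37. Between 6 and 4 weeks it differed for 0 members in limma (0.0% of all genes higher and 0.0% lower), and for 0 at an unadjusted p under 0.05, beside 1.01% of all genes higher and 1.92% lower. The median change was -0.10 between 6 and 2 weeks and 0.25 between 6 and 4 weeks.

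In 3 of the 6 groups the share of members higher on 1 replicate array was far above that of all genes. In the 2-week mutants, 30 of 31 members were higher in replicate 3 than in replicate 2, by a median of 0.79, beside 56.3% of all genes. In the 4-week mutants 25 of 31 were higher in replicate 2 than in replicate 1, by 0.33, beside 48.9%. In the 2-week wild type 28 of 31 were higher in replicate 2, by 0.28, beside 49.9%. The other groups did not show this. In the 6-week mutants 21 of 31 were lower in replicate 4 than in replicate 3 and 10 were higher, near the 34.7% of all genes. In the wild type 16 were higher and 14 lower in replicate 3 than in replicate 1 at 4 weeks, and 17 were higher and 14 lower at 6 weeks, with median gaps of 0.01 and 0.02.

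Relative to the wild-type mean of the same age, the median member lay 0.44 and 1.50 higher in 2-week mutant replicates 2 and 3, 0.40 and 0.80 higher in 4-week replicates 1 and 2, and 1.12 and 0.90 higher in 6-week replicates 3 and 4. Every mutant array had 28 or more of 31 members above that mean. Each 2-week array came from 1 range of array numbers. At 4 and 6 weeks only 1 wild-type array shared the range of the mutants, and against that array the median difference was 0.66 and 0.96.

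**Figure D4:**
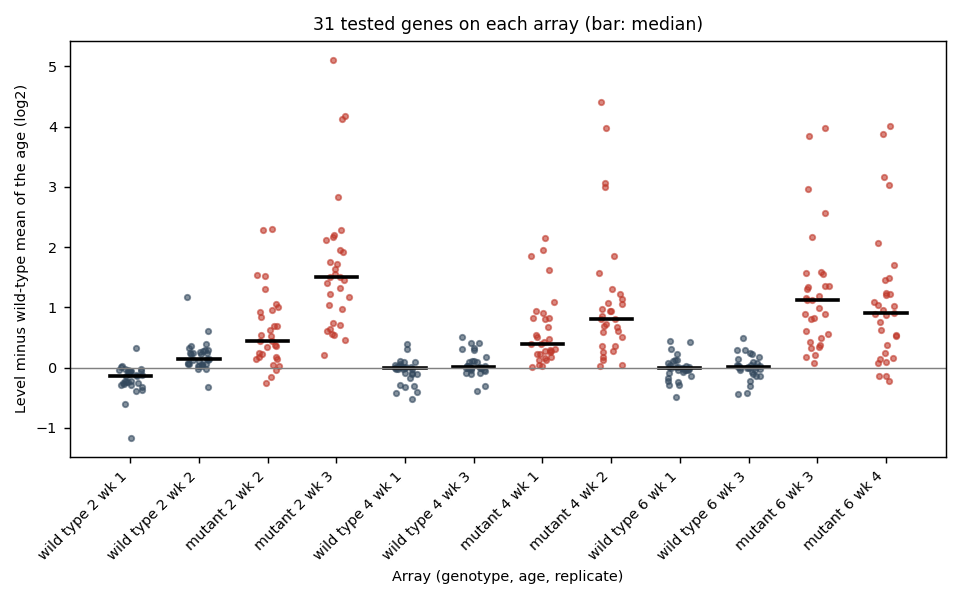
Level of each of the 31 tested genes on each array minus the wild-type mean of the same age, in log2 units, with a bar for the median of an array. The 6 mutant medians lie between 0.40 and 1.50, and the 2-week mutant replicates are the pair furthest apart.

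In the wild type, a few members changed with age. From 2 to 6 weeks, 3 members rose in limma (3.31% of all genes): Ifi27l2a by 2.58 ± 0.28 (adjusted p = 0.0063), Ifit3 by 1.63 ± 0.35 (adjusted p = 0.039) and Samd9l by 0.76 ± 0.16 (adjusted p = 0.036). Bst2 differed by -1.22 ± 0.44 and did not pass (adjusted p = 0.135). In the mutant, Ifi27l2a and Ifit3 rose over the same ages, by 1.40 ± 0.28 and 1.34 ± 0.35, as did 7.58% of all genes. The median change of the members was 0.12 in the wild type and 0.15 in the mutant, beside 0.10 and 0.12 for all genes. The wild-type count was 0 without either 2-week wild-type array or 6-week wild-type replicate 1, 1 without 6-week wild-type replicate 3 and 6 without either 2-week mutant array. The mutant count was 0 without either 6-week mutant array, 1 without any 1 of the 2- and 6-week wild-type arrays, and 5 and 6 without 2-week mutant replicates 2 and 3. Age and array number range overlap here, since all 2-week arrays and no others lie in 1 range, and they cannot be told apart.

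Other genes of the interferon pathway were read from lists. Of 11 ligand genes, 6 had a value, and Il15 alone was tested, at 0.00 ± 0.18. Ifna4 and Ifng lay at the floor on all 12 arrays, Ifna1 and Ifna2 at 2.14, and Ifnb1 between 2.14 and 2.31. For Ifnk, Ifne, Ifnl2, Ifnl3 and Il27 no probe set naming them alone was used. MAS5 called Ifnb1 present on 3 of 12 arrays and the 4 others on 0. None of these 5 interferon genes was high enough on the GCRMA scale to be tested.

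All 6 receptor subunits were tested and 0 passed in limma, with 1 at an unadjusted p under 0.05 in either direction. At that level 6.84% of all genes were higher and 7.99% lower, and the counts of this kind below stand beside the same shares. Ifnar1, Ifnar2, Ifngr1, Ifngr2 and Ifnlr1 differed by -0.14 to 0.15, and Il10rb, a subunit shared by the type III interferon and interleukin-10 family receptors, by 0.34 ± 0.07 (adjusted p = 0.072). Of 8 kinase and STAT genes, 6 were tested and 0 passed, with 2 at an unadjusted p under 0.05. Jak1, the gene mutated in Spade, ranged from 11.51 to 12.27 and differed by -0.15 ± 0.09 (limma, adjusted p = 0.496), so its RNA level does not check the genotype labels. Stat2 differed by 0.41 ± 0.20 and Stat3 by 0.65 ± 0.16. Of 8 tested feedback regulators 0 passed, 2 of them with an unadjusted p under 0.05. Socs3, which blocks JAK kinases, stood at 1.08 ± 0.35 (limma, adjusted p = 0.213), and Socs1 lay at the GCRMA floor on all 12 arrays although MAS5 called it present on 9. Of 6 tested interferon regulatory factors beyond the members 0 passed in limma, and 3 had an unadjusted p under 0.05.

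Target genes outside the antiviral list stood higher as well. On average over ages 42.4% of all genes differed by more than 0 and 0.534% were called higher, and the list counts stand beside these shares. Of 9 tested interferon GTPases, which attack vacuoles of intracellular microbes, 9 differed by more than 0 and 3 rose: Iigp1 by 2.05 ± 0.24, Gbp3 by 1.26 ± 0.22 and Irgm2 by 1.07 ± 0.18 (limma, adjusted p = 0.020, 0.049 and 0.039). Igtp stood at 1.09 ± 0.23 and did not pass. Of 10 class I presentation genes, 10 differed by more than 0 and 2 rose, H2-D1 by 0.41 ± 0.06 and H2-K1 by 0.40 ± 0.06. Of 11 tested genes of nucleic acid sensing 1 rose, Samhd1, a nucleotide hydrolase, by 1.26 ± 0.18 (limma, adjusted p = 0.028). The list medians were 0.98 for the GTPases, 0.45 for class I presentation and 0.40 for nucleic acid sensing, beside 0.91 for the antiviral genes. Of targets typical of interferon gamma, Cxcl9 and Cd274 were tested and stood at 0.37 ± 0.27 and 0.47 ± 0.12, while Cxcl10, Cxcl11, Ido1 and Ciita were too low to test.

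**Figure D5:**
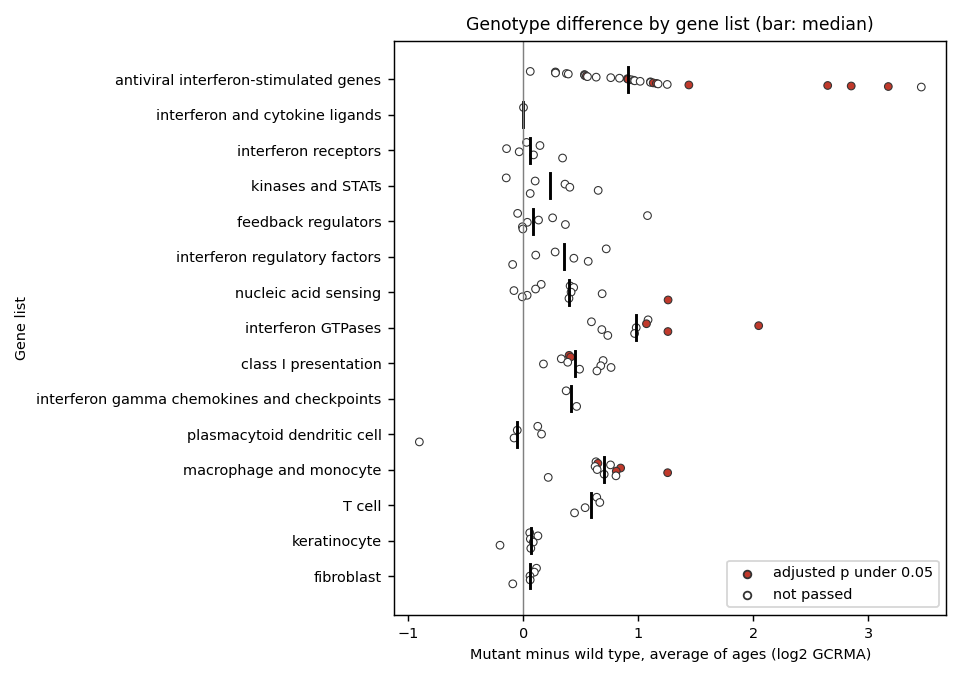
Mutant minus wild-type difference, averaged over ages in log2 GCRMA units, of each tested gene in the antiviral list, the other interferon pathway lists and 5 marker lists, with bars for list medians. The antiviral, GTPase and macrophage lists have medians of 0.91, 0.98 and 0.70, and the receptor, keratinocyte and fibroblast lists lie near 0. Marker lists of hair shaft, skeletal muscle and cartilage are not drawn.

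Tested markers of macrophages and monocytes, neutrophils and T cells also stood higher in the mutant on average over ages. Among all genes 42.4% differed by more than 0 and 0.534% were called higher, and the marker counts stand beside these shares. Of 11 tested macrophage and monocyte markers, 11 differed by more than 0 and 4 rose: Ccr2 (1.26), C1qa (0.85), C1qc (0.81) and Csf1r (0.65), with a list median of 0.70. Their summed level on a linear scale was 14776 to 15232 in the wild type and 18623 to 26100 in the mutant at 2 weeks, 12427 to 16219 against 19543 to 21247 at 4 weeks, and 9525 to 13754 against 22049 to 23737 at 6 weeks. Within the 2-week mutants the higher sum was that of replicate 3, the array that also stood apart in hair-shaft, muscle and cartilage markers. Whether these sums follow the antiviral genes from array to array was not tested.

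Of 4 tested neutrophil markers 1 rose, and their list median was 2.38. Their summed level was 513 to 1210 in the wild type and 3014 to 4023 in the mutant at 2 weeks, 242 to 244 against 325 to 2449 at 4 weeks, and 151 to 172 against 2517 to 3782 at 6 weeks. Of 4 tested T cell markers 0 passed in limma and 4 had an unadjusted p under 0.05, with a median of 0.59, while Cd4 and Cd8a were too low to test. The summed T cell level was 580 to 681 against 931 to 1152 at 2 weeks, 586 to 773 against 651 to 1358 at 4 weeks, and 688 to 878 against 1022 to 1329 at 6 weeks. The part of these cell types in the differences of the antiviral genes was not tested. Siglech, which defines plasmacytoid dendritic cells, the known specialists of interferon production, did not exceed 2.16 on any array. Of 5 other tested markers of that list 0 passed in limma and 1 had an unadjusted p under 0.05, with a median of -0.05. The summed level of the list was 34343 to 37979 in the wild type and 27565 to 34133 in the mutant at 2 weeks. It was 40584 to 40727 against 37910 to 38556 at 4 weeks, and 38056 to 40163 against 40155 to 41753 at 6 weeks. With Siglech that low, the list median does not show whether these cells changed. Ncr1 of natural killer cells lay at the floor on all arrays. Keratinocyte and fibroblast lists had medians of 0.06 each, with 0 of 6 and 0 of 5 genes called in limma and 0 at an unadjusted p under 0.05. Skeletal muscle and cartilage lists had medians of -0.62 and -0.49, with 0 of 7 and 0 of 5 tested genes above 0, beside 42.4% of all genes. The hair-shaft list had a median of 1.05, with 6 of 6 tested genes above 0. By age its median was 3.12 at 2 weeks, -0.02 at 4 weeks and -0.30 at 6 weeks. No gene of these lists was called in limma.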

How the data were processed

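Total RNA of whole ear from 12 samples was hybridised to Affymetrix mouse expression arrays. Sample titles gave 6 groups of genotype and age, with 2 arrays each. The log2 values are those the authors deposited after GCRMA, which corrects background, normalizes between arrays and summarises probe sets, per the series design text and the submitters' processing notes. Versions and the labelling protocol are not given in the sources used here. The deposited intensity values are MAS5 signals on a linear scale, each with a detection call, and were used for the calls and, after a floor of 50 and log2, as an alternative.

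Of 45101 probe sets, 34958 name 1 gene, 932 several and 9211 none in the array annotation. Genes with a level of 4 or more on at least 2 arrays were tested in R 4.3.3 using limma 3.58.1. The model had 6 group means, which left 6 residual degrees of freedom, a variance trend, and a Benjamini-Hochberg adjusted p under 0.05 over all 11984 genes. Errors are standard errors of that fit. The rank product criterion used 1000 permutations, a 2-fold minimum and a false discovery rate under 0.05 per age or 0.001 for the ages together, in Python 3.11.15 with numpy 2.4.6 and pandas 2.3.3. Figures were drawn with matplotlib 3.10.9. The methods were tested on simulated data.

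All 38 members are named. Values of every array are printed for the members called on average, the 4 largest differences among the others and the 2 smallest. From the pathway lists, ligands, receptors, Jak1, Stat2, called genes and genes at least 2-fold different are named, and 1 further gene of the rule is not reported here. Stat3, Cxcl9 and Cd274, the low genes, and the markers named were chosen after their values were seen. The members and lists were chosen with earlier results of these data known. The number of arrays limits the precision, and for members with several probe sets the choice of probe set also changed the value. The ISRE and GAS patterns are textbook consensus forms, not taken from the files, and were searched in RefSeq windows, whose orientation was checked by the position of TATAAA before the start.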

Additional observations from a re-analysis of the deposited data

How the results depend on the processing

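Single choices changed how many members passed more than their direction. On average over ages 9 of 31 members were called, beside 77 of all 11984 genes. The member count was 1 without the filter on low values (24 of 18194 genes) and 5 with probe sets averaged per gene (48 of 11383). It was 3 with a term for the array number range of 17 to 20 (24 of 11984), and 11 on MAS5 signals (119 of 11984), of which 8 were among the 9. The member count stayed at 9, the same genes, with a filter at 6, quantile normalization, median centring and a variance prior without trend. On MAS5 signals the median difference was 0.60 on average over ages and 0.65 at 6 weeks. At 6 weeks, where 0 members passed in limma, 1 passed on MAS5 signals, 1 with a replicate block, 2 in a fit of the arrays of that age alone, and 4 by the rank product criterion, which also called 4 at 4 weeks. For the wild type at 6 against 2 weeks (3 members), the count was 1 on MAS5 signals and 1 with the range term. For the mutant (2 members), it was 0 without the filter or with the range term, and 1 with the mean of probe sets, MAS5 signals, quantile normalization, median centring or no trend. Leaving out single arrays gave 0 to 26 calls on average over ages, 0 to 19 at 2 weeks, 0 at 4 weeks, 0 to 3 at 6 weeks, and 0 to 6 for either genotype at 6 against 2 weeks. The median difference then ran from 0.74 to 1.10 on average, 0.44 to 1.50 at 2 weeks, 0.40 to 0.80 at 4 weeks and 0.90 to 1.12 at 6 weeks. Members with every mutant array above every wild-type array numbered 23, 27 and 26 at the 3 ages with all arrays. With 1 array of the age left out they numbered 23 to 31, 28 to 29 and 26 to 31. Such a count can only stay or rise when an array is left out, so this range does not measure how stable it is. The cause of the other changes was not tested. Fits that left out an array held fewer arrays, and the fit without the filter held more genes. Of 642 alternative values for single members, 522 kept direction and side of the threshold, 94 no longer passed, 26 newly passed and 0 reversed. Compared groups share 1 replicate number at each age. Deviations of the arrays with that number correlated at -0.12, 0.19 and 0.25 over genes. With 2 arrays per group and 1 shared number per age, this cannot decide whether the numbers pair the samples. With the replicate number as a random block (consensus correlation 0.427), 13 members were called on average over ages, beside 238 of all 11984 genes. Levels near the floor limit what can be said of Ifit1, Usp18, Oasl2 and Dhx58 in the wild type.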
